A study of Mus musculus with 14 samples.

Results

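The co-inhibitory receptors Tigit, Ctla4, Pdcd1 (PD-1), Lag3, Havcr2 (TIM-3), Cd96, Btla and Cd160, together with the inhibitory lectin receptor Klrg1, were followed across the subsets and genotypes of mouse regulatory T cells (Tregs). Members were taken by gene symbol, each matched a single transcript cluster (the probes that read 1 gene), and they make up 9 of the 22203 transcript clusters tested. Effector Tregs carried more Tigit, Pdcd1, Lag3, Klrg1 and Ctla4 signal than central Tregs in controls, whereas Cd96 and Btla lay at nearly the same level in both subsets. Between genotypes no member passed the adjusted threshold. Havcr2 was the member with the lowest p between genotypes in effector Tregs (limma, adjusted p = 0.292). Its signal was higher on all 3 effector arrays labelled KO than on any of the 4 control effector arrays. Of all transcript clusters, 6.85% were likewise without overlap in that comparison, in either direction. Some of these KO arrays also had high signal of monocyte and macrophage genes, whose part in the Havcr2 values was not tested.

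RNA of sorted Tregs was measured on 14 Clariom S arrays. Donor marrow was CD45.2+ and carried a Cre recombinase driven by Foxp3, the lineage factor of Tregs, so that loxP-flanked (floxed) Atg14 is cut in cells that express Foxp3. The protein Atg14 belongs to one of the complexes formed by Vps34, a lipid kinase that acts in autophagy. The controls, labelled Atg14 heterozygous, had Foxp3Cre and 1 floxed Atg14 allele (Atg14+/fl), and the arrays labelled KO came from Foxp3Cre Atg14fl/fl marrow. Both kinds of marrow were mixed with CD45.1+ wild-type marrow and given to sublethally irradiated Rag1-/- hosts, which make no T or B cells of their own and keep their other blood cells in part, and marrow had 6 to 8 weeks to reconstitute in all groups. Central Tregs (cTregs, CD44-) and effector Tregs (eTregs, CD44+) were then sorted from CD4+Foxp3-YFP+ cells, with 4 control and 3 KO arrays of each subset. All strains were on the C57BL/6 background. Mice of both sexes were used in the study, at adult or perinatal ages depending on the experiment. The paper counts 4 control and 3 KO chimeras for these arrays. Ages and any pooling for them were not given in the sources used here. The labels do not say whether replicates came from separate hosts. The p-values therefore measure the spread between these samples only, which may be technical.

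Co-inhibitory receptors are surface proteins of lymphocytes that pass dampening signals once bound by ligands, many of which sit on antigen-presenting cells. TIGIT and CD96 bind the nectin-like protein Pvr in competition with the activating receptor CD226, CTLA-4 takes CD80 and CD86 away from CD28, PD-1 binds PD-L1 and PD-L2, and BTLA and CD160 share the ligand Tnfrsf14. Tregs use CTLA-4 to strip ligands from antigen-presenting cells, and KLRG1, which binds cadherins, is a marker of terminally differentiated Tregs.

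Most of the genes that encode these receptors lie in separate places in the genome (RefSeq, GRCm38.p6). Tigit (chr16:43626137-43665125), Btla (chr16:45223705-45252895) and Cd96 (chr16:46035652-46120248) share a stretch of chromosome 16, and Lag3 (chr6:124904359-124912434) and Klrg1 (chr6:122270596-122282833) share chromosome 6. Ctla4 (chr1:60909025-60915832) and Pdcd1 (chr1:94038305-94052553) are on chromosome 1, Havcr2 (chr11:46454931-46481255) on chromosome 11 and Cd160 (chr3:96798763-96829351) on chromosome 3.

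Promoter windows of 250 bases before an annotated start were matched for 7 of the 9 members, in 8 windows because Cd160 has a pair of them; Lag3 and Klrg1 did not match. Of 8 motifs searched on both strands, the Runx motif TGTGGT was the one held by most members. It was present in 6 of the 8 windows, in 5 of the 7 genes, and in 14% of all 32851 windows of the same length. It stands in front of Tigit and Havcr2, called between subsets in at least 1 genotype, but not of Ctla4 and Pdcd1, called likewise. It also stands in front of Cd96 and Btla, which did not pass the test in either genotype. The 30 bases around each match are shown for that reason, 5′ to 3′ on the strand of the gene, with the motif or its reverse complement in capitals.
Tigit, chr16:43664307-43664336, minus strand: cgtgtatctctaACCACAtgttttatttgt
Havcr2, chr11:46454873-46454902, plus strand: ggcctctgtgggTGTGGTtagcactcgtga
Cd96, chr16:46120259-46120288, minus strand: acttagccctgaACCACActactttcctgt
Btla, chr16:45224147-45224176, plus strand: atcagaaacaaaACCACAgcagggcctctt
Cd160, chr3:96829410-96829439, minus strand: tgatctctatcaACCACAcccacacaaacc
Cd160, chr3:96814605-96814634, minus strand: aaaaacccattcTGTGGTttttcaaagatc
The windows of Tigit, of Btla and of the last Cd160 site end at the start of a transcript that is not the outermost one of the gene.

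The other 7 motifs were found in at most 2 windows each. The letters searched were TGANTCA for AP-1 (in 6.75% of all windows), TGGAAA for NFAT (18.6%), GTAAACA for forkhead factors (3.17%), AGATAA for GATA factors (9.99%), CAGGTG for an E-box (17.2%), CGGAAG for Ets factors (13.6%) and GGTGTGA for T-box factors (3.33%). Matches of different motifs can share bases, and none did in the windows of the members. The whole windows of Ctla4, Pdcd1 and Havcr2 are shown because the first of these genes was called in controls alone, the second in both genotypes and the third in KO arrays alone. Any motif found is in capitals, on the strand of the gene, 5′ to 3′.
Ctla4, chr1:60908775-60909024, plus strand: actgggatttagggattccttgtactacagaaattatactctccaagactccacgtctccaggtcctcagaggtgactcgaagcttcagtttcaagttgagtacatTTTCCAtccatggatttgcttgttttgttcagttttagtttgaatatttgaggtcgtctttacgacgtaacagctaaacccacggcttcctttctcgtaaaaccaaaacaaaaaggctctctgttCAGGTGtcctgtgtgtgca
Pdcd1, chr1:94052554-94052803, minus strand: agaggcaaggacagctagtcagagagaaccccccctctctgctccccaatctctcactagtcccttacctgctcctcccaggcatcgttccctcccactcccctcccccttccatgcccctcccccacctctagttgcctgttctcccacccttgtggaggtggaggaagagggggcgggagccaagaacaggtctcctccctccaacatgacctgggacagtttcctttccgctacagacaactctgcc
Havcr2, chr11:46454681-46454930, plus strand: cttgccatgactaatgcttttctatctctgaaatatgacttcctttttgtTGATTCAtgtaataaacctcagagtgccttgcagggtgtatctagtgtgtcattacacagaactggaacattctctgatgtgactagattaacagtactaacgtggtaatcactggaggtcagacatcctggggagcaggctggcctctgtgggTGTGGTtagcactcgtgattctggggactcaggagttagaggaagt
The Ctla4 window held an NFAT and an E-box match, the Havcr2 window an AP-1 and the Runx match, and the Pdcd1 window none of the 8.

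All values below are log2 signals, on which a difference of 1 is a doubling, and levels of different genes are not comparable because probes differ in brightness. A change was called when its adjusted p was below 0.05 and its size at least 0.5. The median of each array lay between 8.77 and 8.90, and that of its background probes between 6.00 and 6.30. The mean of 6 Treg genes (Foxp3, Il2ra, Ikzf2, Cd4, Cd3e and Cd3g) lay between 11.76 and 12.04 on all 14 arrays. Atg14 itself was not lower on the arrays labelled KO. It was higher by 0.32 in eTregs (limma, unadjusted p = 0.0323, adjusted p = 0.550) and by 0.35 in cTregs (unadjusted p = 0.0213, adjusted p = 0.9999). These arrays are therefore named by their label throughout. The position of the Atg14 probes relative to the floxed part was not known. The paper reports Atg14 deletion by quantitative PCR in Tregs sorted from Foxp3Cre Atg14fl/fl mice, which are other samples than these.

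A group of monocyte and macrophage genes set some arrays apart. The mean of 8 such genes (Lyz2, Csf1r, Cd14, Adgre1, Itgam, Mrc1, Cd68 and Fcgr3) was 10.5 on KO eTreg 2 and 10.5 on KO eTreg 3, but 8.49 on KO eTreg 1. It was 8.57 to 9.01 on control eTregs and 7.98 to 8.32 on cTregs of both genotypes. The mannose receptor gene Mrc1, for example, was 11.29 and 10.64 on KO eTreg 2 and 3, 7.29 on KO eTreg 1 and 7.79 to 8.80 on control eTregs. Of the 8 genes, 7 were higher in KO than in control eTregs at an unadjusted p below 0.05 with a change of at least 0.5. Mean signal of 7 dendritic cell genes was 8.35, 8.93 and 9.15 on KO eTregs 1 to 3 and 8.24 to 8.39 on control eTregs. At that same threshold 4 of these 7 were higher in KO eTregs. Flt3, Clec9a and Zbtb46 differed by -0.10, -0.078 and -0.035. Of the 7, only Siglech, a marker of plasmacytoid dendritic cells, was called between genotypes in eTregs, with a rise of 1.78 (limma, adjusted p = 4.83e-04). Its values were 9.78, 10.79 and 10.65 on KO eTregs 1 to 3 against 8.37 to 8.86 on control eTregs. For 8 genes of CD8 T cells and NK cells the mean was 8.76, 9.15 and 9.19 on KO eTregs and 8.48 to 8.88 on control eTregs. Mean signal of B cell genes was 8.50, 8.66 and 8.69 on KO eTregs 1 to 3 and 8.36 to 8.54 on control eTregs. Neutrophil genes (7.32 to 7.44) lay in a narrow range over the 7 eTreg arrays. The part of these cells in the member values was not tested. Some member results for KO eTregs are also given without KO eTreg 2 and 3. For the lists of other genes further below, all KO results include KO eTreg 2 and 3. In bulk RNA, fewer cells that express a receptor and less RNA per cell cannot be told apart.

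Tigit, the receptor for Pvr, had the largest subset difference of the 9 members. Its signal was 6.79, 7.40, 7.35 and 7.83 on control cTregs 1 to 4, and 11.02, 11.26, 11.25 and 11.26 on control eTregs 1 to 4. On the arrays labelled KO it was 6.91, 7.42 and 7.78 in cTregs and 9.67, 11.05 and 10.94 in eTregs. In both genotypes the lowest eTreg array stood far above the highest cTreg array. The mean rose by 3.85 ± 0.27 (SE, 4 arrays against 4), a fold of 14.4, in controls (limma, adjusted p = 1.50e-06). It was the largest fitted rise among all 22203 transcript clusters in that comparison. Tigit on cTregs was only 0.66 to 1.78 above the median of the background probes, so its folds may be understated. On arrays labelled KO the rise was 3.18 ± 0.31 (SE, 3 against 3), a fold of 9.07, with an adjusted p of 4.01e-05 by limma.

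Pdcd1, which encodes the receptor PD-1, was second in size. Its signal was 9.03, 9.41, 9.35 and 9.38 on control cTregs and 11.06, 11.41, 11.09 and 11.31 on control eTregs. It was 9.27, 9.55 and 8.86 in KO cTregs and 10.65, 11.26 and 10.95 in KO eTregs. No cTreg array reached the level of any eTreg array. The rise was 1.93 ± 0.16 (SE) or 3.80-fold in controls (limma, adjusted p = 3.95e-06) and 1.72 ± 0.18 (SE) or 3.30-fold on arrays labelled KO (adjusted p = 8.43e-05).

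Lag3, a CD4-related receptor for MHC class II, followed the same order. Its signal was 8.90, 8.78, 9.18 and 8.84 on control cTregs and 10.15, 10.19, 9.98 and 10.53 on control eTregs, without overlap. On arrays labelled KO it was 9.03, 9.001 and 8.88 in cTregs and 9.47, 10.32 and 10.26 in eTregs, where KO eTreg 1 lay closest to the cTregs. The rise was 1.29 ± 0.17 (SE) or 2.45-fold in controls (limma, adjusted p = 2.63e-04) and 1.05 ± 0.19 (SE) or 2.07-fold on arrays labelled KO (adjusted p = 0.00783). The KO call was lost without KO eTreg 3 (adjusted p = 0.0536).

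Ctla4, the receptor that competes with CD28 for CD80 and CD86, differed by less. Its signal was 12.08, 12.01, 12.13 and 12.15 on control cTregs and 12.46, 12.70, 12.72 and 12.80 on control eTregs. The values were 11.93, 11.78 and 12.41 on KO cTregs and 12.36, 12.67 and 12.64 on KO eTregs, so that KO cTreg 3 reached above KO eTreg 1. In controls the groups did not overlap and the rise was 0.58 ± 0.13 (SE) or 1.49-fold (limma, adjusted p = 0.0172). The KO difference of 0.52 ± 0.15 (SE) did not pass (adjusted p = 0.0903). The control call rested on each of 4 arrays, since it was lost without control cTreg 2 or without control eTreg 2, 3 or 4 (adjusted p up to 0.0702).

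Klrg1, a lectin-like receptor for cadherins with an inhibitory motif, varied most of the members between control eTreg arrays. Its signal was 7.35, 7.22, 7.07 and 7.72 on control cTregs and 8.71, 9.87, 9.12 and 8.25 on control eTregs. KO cTregs read 7.96, 7.32 and 7.33, and KO eTregs read 8.26, 9.16 and 8.31. Both eTreg groups lay wholly above their cTregs, with SDs of 0.69 among control eTregs and 0.51 among KO eTregs. The control rise was 1.65 ± 0.29 (SE) or 3.13-fold (limma, adjusted p = 0.00318), and the KO difference was 1.04 ± 0.33 (SE) or 2.05-fold, which did not pass (adjusted p = 0.134). These folds have the same limit as those of Tigit, since Klrg1 on cTregs was 0.95 to 1.71 above the background median.

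Cd160, which binds Tnfrsf14 as Btla does, showed a small but even difference. Its signal was 9.44, 9.54, 9.46 and 9.46 on control cTregs and 10.07, 9.98, 9.996 and 9.80 on control eTregs. KO cTregs read 9.45, 9.62 and 9.51, and KO eTregs read 9.89, 10.17 and 9.99. The groups were apart in both genotypes, and the difference of 0.49 was the same to 2 decimals in each (limma, adjusted p = 0.00634 in controls and 0.0249 on arrays labelled KO). It was just under the change of 0.5 and so was not called.

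Havcr2, the receptor for galectin-9 and other ligands, which macrophages and dendritic cells express too, was near background in cTregs. Its signal was 6.38, 6.78, 6.55 and 6.40 on control cTregs and 6.34, 7.10, 7.19 and 7.35 on control eTregs. The KO arrays were at 6.11, 6.54 and 6.40 in cTregs and at 7.58, 8.13 and 7.44 in eTregs. The cTreg values lay between -0.14 and 0.61 relative to the median of the background probes on the same array, so a fold against cTregs may be understated. In controls the difference of 0.47 ± 0.20 (SE) did not pass (limma, adjusted p = 0.319), with control eTreg 1 below all 4 control cTregs. Without control eTreg 1 it was 0.69 and was called (adjusted p = 0.0302). On arrays labelled KO it rose by 1.37 ± 0.23 (SE) or 2.58-fold (adjusted p = 0.00405). With KO eTreg 2 and 3 left out, the difference was 1.23 and the call was lost (adjusted p = 0.135, with 1 eTreg array assumed to vary like the other groups).

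Cd96 and Btla, a Pvr receptor and a Tnfrsf14 receptor, did not pass in either genotype. Cd96 signal was 12.22 to 12.28 on control cTregs, 12.13 to 12.28 on control eTregs, 12.33 to 12.44 on KO cTregs and 12.16 to 12.34 on KO eTregs. Its eTreg minus cTreg difference was -0.054 in controls (95% interval -0.23 to 0.12) and -0.13 on arrays labelled KO (-0.33 to 0.071). Btla signal was 10.25 to 10.30 on control cTregs, 10.11 to 10.55 on control eTregs, 10.10 to 10.59 on KO cTregs and 10.22 to 10.30 on KO eTregs. Its difference was 0.16 in controls (-0.11 to 0.42) and 0.0048 on arrays labelled KO (-0.30 to 0.31).

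**Figure D1:**
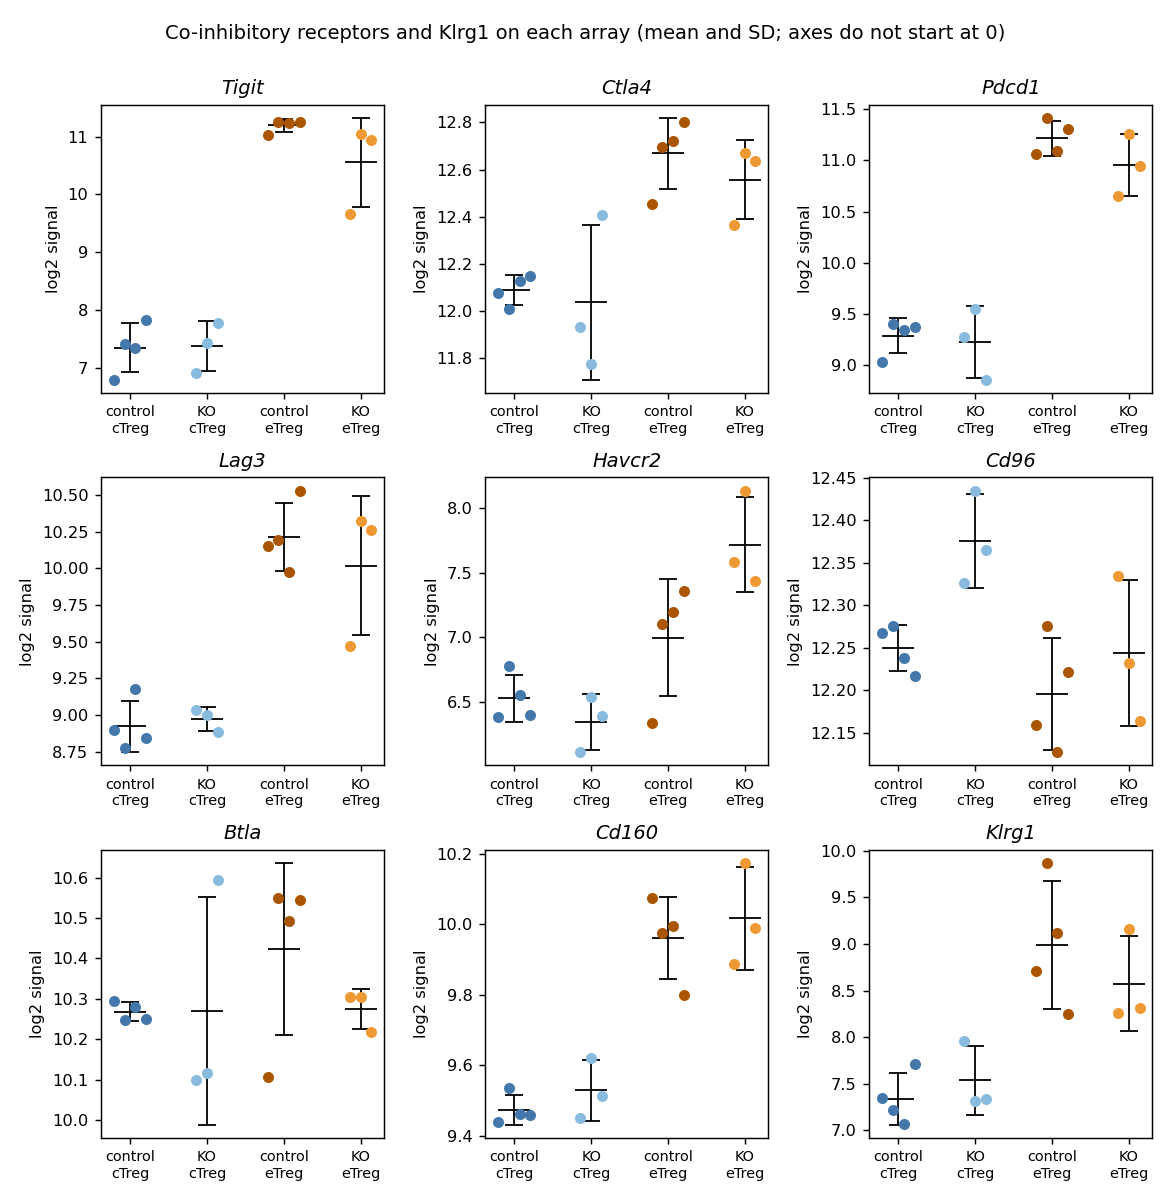
Log2 signal (y axis, a separate range for each gene) of the 9 members on each of the 14 arrays, by subset and genotype on the x axis; points are arrays, the long bar is the group mean and the whiskers are 1 SD. Tigit, Pdcd1, Lag3, Cd160 and Klrg1 have all eTreg arrays above all cTreg arrays of the same genotype, and KO eTreg 1 is the low Tigit point at 9.67.

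Over the 9 members, 5 were called higher in control eTregs and 0 lower, where 2.14% of all transcript clusters were called higher. In controls 6 members had eTreg arrays wholly above cTreg arrays, against 6.12% of all transcript clusters, and 6 had an adjusted p below 0.05 at any size of change, against 2.38%. The median change of the members was 0.58, and that of all transcript clusters was 0.0026. On arrays labelled KO 4 members (Tigit, Pdcd1, Lag3 and Havcr2) were called higher, against 2.02% of all. There, 6 members had no overlap (6.46% of all) and 5 had an adjusted p below 0.05 at any size (2.06% of all). The median change was 1.04 for the members and -0.044 for all transcript clusters. Tigit, Pdcd1 and Lag3 were called in both genotypes. With KO eTreg 2 and 3 left out, 2 members, Tigit and Pdcd1, were called on arrays labelled KO.

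**Figure D2:**
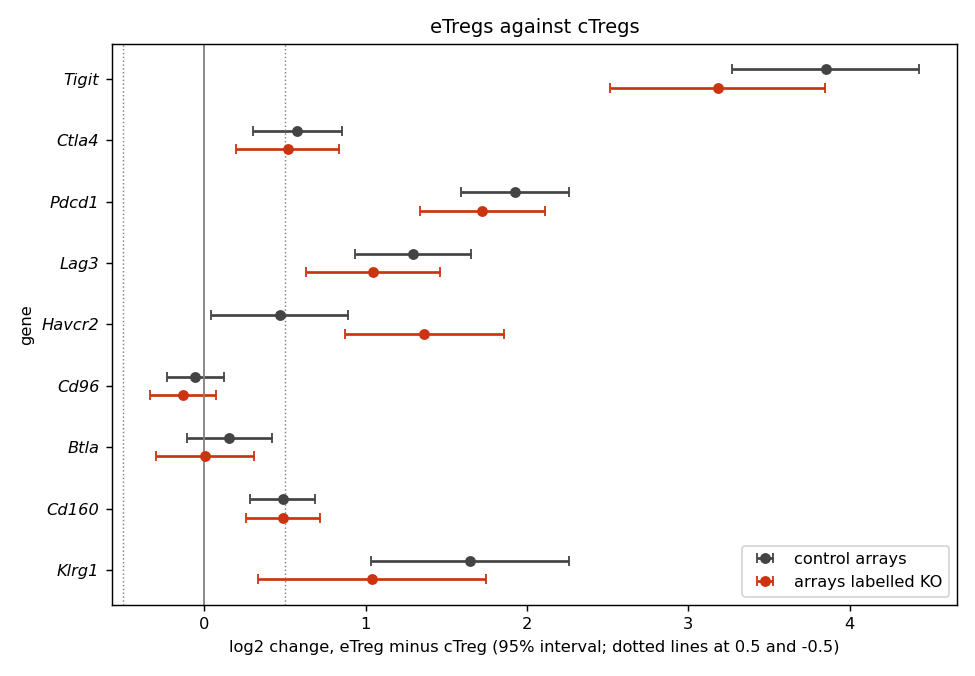
Difference in log2 signal between eTregs and cTregs (x axis) for the 9 members (y axis), in control arrays and in arrays labelled KO; points are the fitted differences, bars are 95% intervals, and dotted lines mark a change of 0.5 in either direction. Tigit stands farthest right at 3.85 and 3.18, Cd96 and Btla lie around 0, and the Havcr2 points are 0.47 in controls and 1.37 on arrays labelled KO.

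The effect of genotype was next read within each subset, which asks whether cells bred to lose Atg14 carried other receptor levels in the same kind of host. In eTregs 0 of the 9 members were called by limma, where 0.117% of all transcript clusters were called. At an unadjusted p below 0.05 with a change of at least 0.5, the threshold that the study used, there were 2 members, Havcr2 and Tigit, in opposite directions, and 2.72% of all transcript clusters. Havcr2 was also the single member without overlap, against 6.85% of all transcript clusters. The median change of the members was -0.15 and that of all transcript clusters was -0.022.

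Havcr2 was higher by 0.72 ± 0.22 (SE) or 1.65-fold in KO than in control eTregs, at an unadjusted p of 0.00441 and an adjusted p of 0.292 (limma). Its excess over the mean of the control eTregs was 0.58 on KO eTreg 1, 1.14 on KO eTreg 2 and 0.44 on KO eTreg 3. Havcr2 was dim in eTregs too, so this difference was read on low signals. It was 0.20 to 1.31 above the background median on control eTregs and 1.32 to 2.07 above it on KO eTregs. Its highest value, 8.13, was below the median of every array. On KO eTreg 1 the mean of the monocyte and macrophage genes was below that of every control eTreg array, with 5 of the 8 genes below all control eTregs, 1 within their range, and Adgre1 and Fcgr3 above it. Of the 7 dendritic cell genes on KO eTreg 1, 3 were below all control eTregs, 2 within their range, and Siglech and Bst2 above it. Siglech was above all control eTregs on each of the 3 KO arrays. The part of myeloid and dendritic cells in the Havcr2 difference was not tested. With KO eTreg 2 and 3 left out, the Havcr2 difference was 0.58 and no longer at the study threshold (unadjusted p = 0.0647). Without control eTreg 1, the array with the lowest eTreg value, it was 0.499, just below the change of 0.5, so that Havcr2 was not at the study threshold there either.

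**Figure D3:**
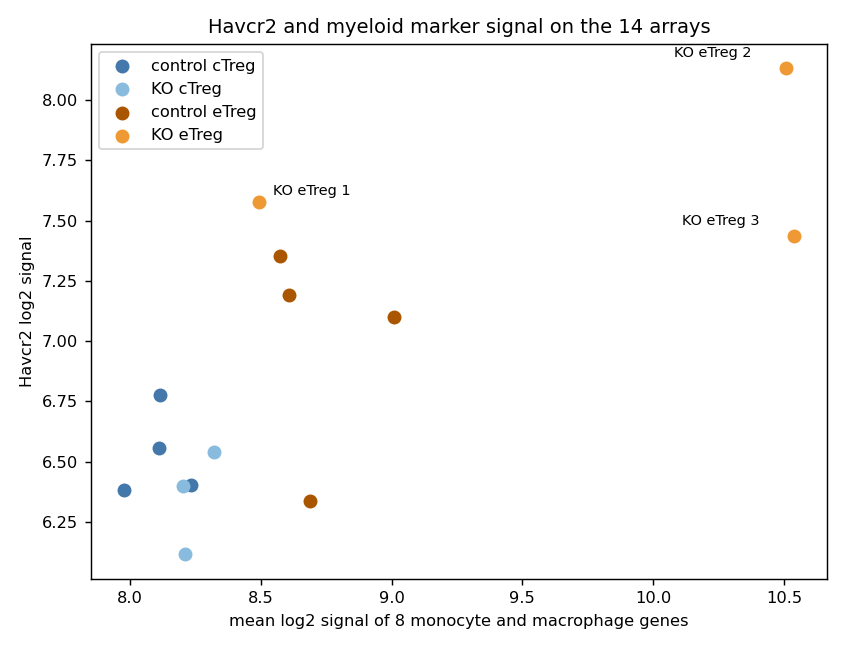
Havcr2 log2 signal (y axis) against the mean log2 signal of 8 monocyte and macrophage genes (x axis); each point is 1 of the 14 arrays, coloured by group. KO eTreg 2 and 3 lie far right at about 10.5, while KO eTreg 1 lies at 8.49 with a Havcr2 signal of 7.58, above all control eTregs.

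Tigit differed by -0.64 ± 0.29 (SE) between KO and control eTregs, with an unadjusted p of 0.0449 and an adjusted p of 0.602 (limma), and the groups overlapped. The difference from the control mean was -1.53 on KO eTreg 1, -0.14 on KO eTreg 2 and -0.25 on KO eTreg 3. Without KO eTreg 1 the Tigit change was -0.20, and without KO eTreg 2 it was -0.89. The paper measured protein, not RNA, by flow cytometry in eTregs of such chimeras. It reports lower TIGIT and PD-1 in Atg14-deficient eTregs, and no reduction of CTLA-4. In the RNA of these arrays the size of the Tigit difference rested on KO eTreg 1. That array was the lowest of the 7 eTreg arrays for 4 members, namely Tigit, Ctla4, Pdcd1 and Lag3, with distances from the control eTreg mean of -0.31 for Ctla4, -0.56 for Pdcd1 and -0.74 for Lag3. On KO eTreg 2 the same members were 0.0020, 0.041 and 0.11 from that mean, and on KO eTreg 3 they were -0.032, -0.27 and 0.047.

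Cd44, the gene of a surface protein used in the sort, was read on the same arrays. Its signal was 10.6, 11.52 and 11.49 on KO eTregs 1 to 3, 10.9 to 11.4 on control eTregs and 9.14 to 9.86 on cTregs. KO eTreg 1 thus lay below the control eTregs and above all cTregs, and KO eTreg 2 and 3 lay above the control eTregs. The part of the sort in the low member values of KO eTreg 1 was not tested.

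**Figure D4:**
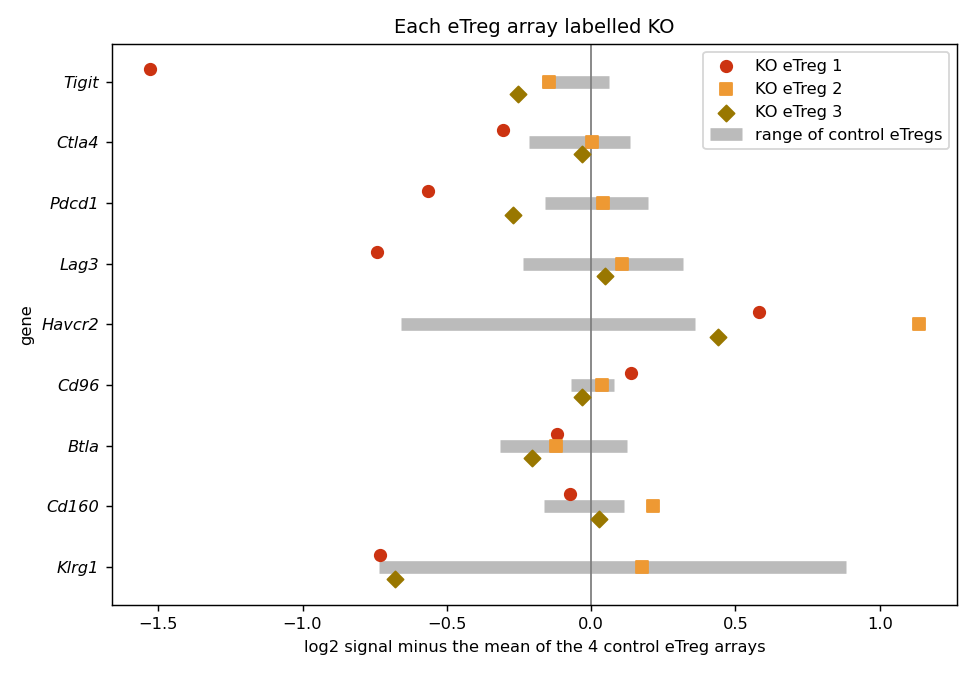
Log2 signal of each eTreg array labelled KO minus the mean of the 4 control eTregs (x axis) for the 9 members (y axis), with the range of the control eTregs in grey. KO eTreg 1 lies left of the grey range for Tigit, Ctla4, Pdcd1 and Lag3, and all 3 KO arrays lie right of it for Havcr2.

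For the remaining members the genotype difference in eTregs was -0.41 for Klrg1 (95% interval -1.07 to 0.25), -0.26 for Pdcd1 (-0.63 to 0.098), -0.20 for Lag3 (-0.58 to 0.19), -0.15 for Btla (-0.43 to 0.13), -0.11 for Ctla4 (-0.41 to 0.19), 0.056 for Cd160 (-0.16 to 0.27) and 0.048 for Cd96 (-0.14 to 0.24). Klrg1 and Tigit had the widest intervals of the 9 members. By flow cytometry the paper found no difference in KLRG1+ eTregs of perinatal Foxp3Cre Atg14fl/fl mice, which are other samples than these. Klrg1 ran from -0.70 without KO eTreg 2 to -0.12 without control eTreg 2, and it reached the study threshold without KO eTreg 2 and without control eTreg 4. Leaving out KO eTreg 2 gave -0.42 for Pdcd1, and leaving out KO eTreg 1 gave -0.11. The direction for Lag3 turned without KO eTreg 1, to 0.078, and for Cd160 without KO eTreg 2, to -0.023.

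In cTregs 0 of the 9 members were called between genotypes by limma, and 0 had an unadjusted p below 0.05 (0.045% of all transcript clusters were called, and 0.576% passed the study threshold). Differences ran from -0.18 for Havcr2 to 0.20 for Klrg1. Cd96, with 12.22 to 12.28 on control and 12.33 to 12.44 on KO arrays, was the single member without overlap (5.05% of all transcript clusters), at a difference of 0.13 (limma, adjusted p = 0.9999).

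**Figure D5:**
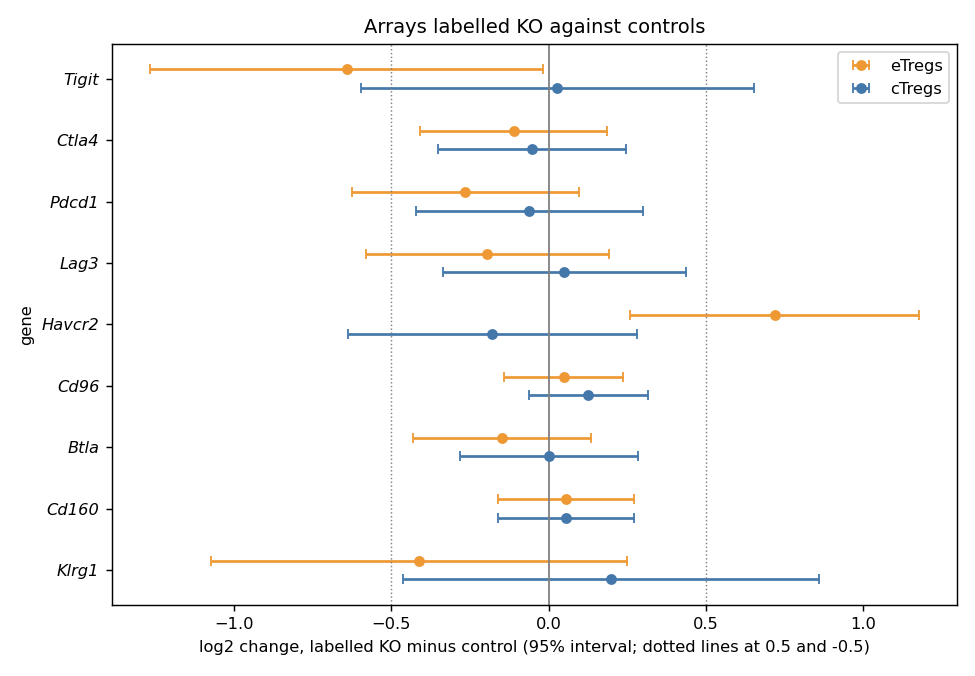
Difference in log2 signal between arrays labelled KO and control arrays (x axis) for the 9 members (y axis), in eTregs and in cTregs; points are the fitted differences, bars are 95% intervals and dotted lines mark a change of 0.5. Every interval in cTregs includes 0, and in eTregs the intervals of Havcr2 (to the right) and Tigit (to the left) do not.

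Whether the genotype difference itself differed between subsets was tested by the interaction term. After adjustment 0 members passed with limma, as did 0% of all transcript clusters. At the study threshold 1 member did, Havcr2, against 3.05% of all transcript clusters. Its genotype difference was 0.90 ± 0.31 (SE) higher in eTregs than in cTregs (unadjusted p = 0.00987, adjusted p = 0.775). The larger subset difference of Tigit in controls than on KO arrays corresponds to an interaction of -0.67 (95% interval -1.55 to 0.21, adjusted p = 0.847), so it was not shown to differ. With the replicate number as a block Tigit was at the study threshold for the interaction (unadjusted p = 0.0181, adjusted p = 0.454), and with KO eTreg 2 and 3 left out its interaction was -1.55 (unadjusted p = 9.68e-04, adjusted p = 0.261).

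Other genes of the same pathway were counted from 5 lists written by hand. Over all transcript clusters 2.14% were called higher in control eTregs and 2.02% on arrays labelled KO. Those were 476 of 680 called in either direction in controls, and 449 of 522 on arrays labelled KO. Median changes of all transcript clusters were 0.0026 and -0.044. Of 14 ligands, 2 were called higher and 0 lower in control eTregs, namely Cd80 (a rise of 1.61), which encodes a CTLA-4 ligand, and Pdcd1lg2 (0.52), which encodes PD-L2. On arrays labelled KO the 2 called ligands were Cd80 (1.22) and the galectin gene Lgals3 (1.08), again with 0 lower. In controls Lgals3 differed by 0.59 (limma, adjusted p = 0.0877). The part of the monocyte and macrophage signal in its KO rise was not tested. Median changes of the 14 were 0.056 and 0.073. Pvr, the TIGIT ligand, had differences of -0.50 (limma, adjusted p = 0.197) and -0.72 (adjusted p = 0.0991) and was not called.

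Of 4 activating or related receptors, Cd226 and Cd28 bind ligands of members, as given above. The ligands of Icos and Cd244a were not among the listed ones. Icos rose by 1.69 in control eTregs and by 1.27 on arrays labelled KO. Cd244a, a receptor of the SLAM family, rose by 0.97 on arrays labelled KO. Its difference in controls was 0.47 (limma, adjusted p = 0.353), and the interaction of 0.50 did not pass (adjusted p = 0.850). Cd226, the activating counterpart of TIGIT, differed by 0.43 (limma, adjusted p = 0.1001) and 0.11 (0.821), and Cd28 by 0.17 (0.638) and 0.032 (0.950), so neither was called. Median changes of the 4 were 0.45 and 0.54.

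Another list held 13 inhibitory or related receptors, of which 11 were matched. Of these, 3 were called higher in control eTregs, 4 on arrays labelled KO and 0 lower in either. Lilrb4a, an immunoglobulin-like receptor found on many myeloid cells as well as on activated T cells, rose by 2.34 and 2.42. The lectin receptor gene Klrb1f, whose product was not checked for an inhibitory role, rose by 1.74 and 1.29. Cd22, best known from B cells, rose by 0.89 and 1.05. Lair1, a collagen receptor of many leukocytes including myeloid cells, rose by 1.18 on arrays labelled KO and differed by 0.055 in controls. Median changes of the list were 0.36 and 1.00.

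Of 12 genes for signalling partners and trafficking, 2 were called higher in control eTregs, 0 on arrays labelled KO and 0 lower. They were Lrba (0.56), whose product keeps CTLA-4 from lysosomes, and Sh2d1a (0.65), the adaptor SAP. The phosphatase genes Ptpn6 and Inpp5d, which act below several inhibitory receptors, had differences of -0.031 (limma, adjusted p = 0.971) and 0.13 (0.737) in controls. Median changes were 0.0080 and -0.0088.

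Of 18 transcription factors linked to these receptors, 8 were called higher and 1 lower in control eTregs. Prdm1 (Blimp-1) rose by 2.55, Nfil3 by 1.70, Maf by 1.36, Tbx21 (T-bet) by 1.18, Id2 by 0.93, Irf4 by 0.86, Batf by 0.64 and Nr4a2 by 0.51, while Bach2, a repressor of effector genes, fell by 0.83. On arrays labelled KO 5 were called higher and 0 lower, namely Prdm1 (2.13), Tbx21 (1.41), Nfil3 (1.31), Maf (1.15) and Id2 (1.05). Median changes were 0.37 and 0.16.

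Between genotypes 0 genes of these 5 lists were called by limma in either subset, and 0 for the interaction. At the study threshold in eTregs there were 3 of the 59 genes (5.08%, against 2.72% of all transcript clusters), all higher on arrays labelled KO, namely Lair1 (1.03, adjusted p = 0.0774), Eomes (0.91, adjusted p = 0.386) and Cd244a (0.52, adjusted p = 0.576). In cTregs there was 1 (1.69%, against 0.576% of all), Klrb1f (0.66, adjusted p = 0.832). For the interaction there were 2 (3.39%, against 3.05% of all), Lair1 (1.12, adjusted p = 0.653) and Cd72 (0.54, adjusted p = 0.768). The monocyte and macrophage genes moved with KO eTreg 2 and 3 as given above, and their part in these values was not tested.

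Genes with the most similar pattern over the 14 arrays were ranked by the root mean square difference of log2 signals, with each gene centred on its own mean. Nearest to Tigit were the chemokine receptor genes Ccr2 (0.385) and Ccr4 (0.440), then Gpm6b (0.479), Cybb (0.503) and Nav2 (0.551), where the median gene was at 1.86. Nearest to Ctla4 were the phosphatase gene Ptpn22 (0.0980) and Il12rb1 (0.102), then Hacd3 (0.121), Prkca (0.123) and Rab8b (0.124), with the median gene at 0.386. Nearest to Klrg1 were Actg2 (0.360), Plcb4 (0.375), Alcam (0.382), Maf (0.388) and Zdhhc2 (0.392), with the median gene at 0.852. All of these genes had an adjusted p below 0.05 between the control subsets, which the ranking itself favours.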

How the data were processed

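Sorted central and effector Tregs of mixed bone marrow chimeras were profiled on 14 Clariom S mouse arrays. Per the labels, the authors ran RMA in Affymetrix Expression Console 1.1, which gave the deposited log2 signal of each transcript cluster. RMA quantile normalises all arrays together, so a shift shared by most genes would not be seen, and it compresses differences near background. Of 28846 entries, 6640 control probe sets and 3 without a symbol were left out, and 22203 were tested without a filter on signal.

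Groups came from the labels. A model with 4 group means was fitted to all arrays in R 4.3.3 by lmFit and eBayes of limma 3.58.1, leaving 10 residual degrees of freedom beside 5.65 of the prior, and 5 contrasts were drawn. P-values are two-sided and Benjamini-Hochberg adjusted over all 22203 transcript clusters. The script was tested on simulated data.

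Members, lists and rules were chosen with earlier results of these data known. All 9 members are named, as are list genes past a threshold, some uncalled partners of the members chosen after their values were seen, marker genes and the 5 genes nearest in pattern to Tigit, Ctla4 and Klrg1. Promoters and gene positions came from RefSeq tables of GRCm38.p6. Pvrig and Klra1 were not matched. A further marker of the sort is not reported here.

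Alternatives were other scaling between arrays, a filter on dim transcript clusters, array weights, an intensity trend with robust prior, only the 2 groups compared, a replicate block and each array left out in turn. The number of arrays limits the precision. Array scans were not used here.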

Additional observations from a re-analysis of the deposited data

Results flagged for a closer look

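In 3 of 18 groups of 4 control arrays, each group taken for 1 member, a single array lay far from the other three by Dixon's test, which chance flags in about 5% of groups. Tigit was 11.02 on control eTreg 1, below 11.25 to 11.26 on the others. Btla was 10.11 on the same array, where the others were 10.49 to 10.55. Pdcd1 was 9.03 on control cTreg 1, below 9.35 to 9.41 on the others. The Havcr2 genotype difference differed between eTregs and cTregs by 0.90 in the interaction test (limma, unadjusted p = 0.00987), which did not pass the adjustment over all transcript clusters (adjusted p = 0.775).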

How the results depend on the processing

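For effector against central Tregs the number of members called was 5 in controls and 4 on arrays labelled KO. Leaving out 1 array gave 4 to 6 and 3 to 6. The filter on dim transcript clusters (mean above 9.56) removed Tigit, Lag3, Havcr2 and Klrg1 before testing and gave 2 and 1. With KO eTreg 2 and 3 left out, an alternative chosen after seeing the data, 2 were called on arrays labelled KO. Between genotypes 0 to 0 members were called in eTregs, in cTregs and for the interaction whichever array was left out. At the study threshold the eTreg count was 2, with 1 after subtracting array medians or with a trend, 0 with array weights, 0 with the filter, which had removed both of its members, and 1 to 3 with 1 array left out. In cTregs it was 0 to 0. For the interaction it was 1, with 0 under the filter, which had removed Havcr2, 2 under the replicate block (Tigit and Havcr2), 3 with KO eTreg 2 and 3 left out (Tigit, Lag3 and Havcr2) and 1 to 2 with 1 array left out.

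Pairing by replicate number was not given by the labels and was not used in the main fit. The correlations pointed towards pairs without establishing them. Of 7 same-numbered pairs, 5 correlated above 0.1 (lowest r = 0.044, highest 0.30) and 6 correlated best with their own number. The consensus correlation used for the block was 0.24. With the replicate block the counts called stayed at 5, 4, 0, 0 and 0.

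Some calls of single members moved. Havcr2 in controls was called with array weights (0.60, adjusted p = 0.0212), Ctla4 on arrays labelled KO with a trend (adjusted p = 0.0434), and Lag3 on arrays labelled KO was not with only the 2 groups compared (adjusted p = 0.0823) or with KO eTreg 2 and 3 left out (0.50, adjusted p = 0.517). The Havcr2 genotype difference in eTregs was 0.49 with array weights (unadjusted p = 0.0186), and that of Tigit was -1.53 with KO eTreg 2 and 3 left out (adjusted p = 0.0750).

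Directions turned for differences near 0. Btla on arrays labelled KO was -0.0098 (medians), -0.027 (75th percentiles) and -0.097 (weights), and in cTregs between genotypes -0.017 (medians). With weights Ctla4 and Lag3 in cTregs were 0.020 and -0.010. The Cd160 interaction was -0.037 (75th percentiles). With KO eTreg 2 and 3 left out, Cd160 in eTregs was -0.073 and the Cd96 and Cd160 interactions were 0.014 and -0.13. With 1 array left out, Btla on arrays labelled KO ran from -0.081 to 0.17, the eTreg genotype difference of Lag3 from -0.35 to 0.078 and of Cd160 from -0.023 to 0.12, the cTreg one of Tigit from -0.18 to 0.26, Ctla4 from -0.24 to 0.078, Pdcd1 from -0.22 to 0.12, Btla from -0.16 to 0.088 and Klrg1 from -0.015 to 0.32, and the interaction of Ctla4 from -0.19 to 0.13, Lag3 from -0.40 to 0.028, Btla from -0.26 to 0.011 and Cd160 from -0.077 to 0.066. The cause was not tested. Another row of a member was not run because each had 1, and the fit of only the 2 groups gives no interaction. Signals near background, as for Havcr2 in cTregs and dimly in eTregs, limit how small a level can be read.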
